A study of Mus musculus with 60 samples.

Results

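Myelin is the lipid-rich sheath that Schwann cells wrap around axons of peripheral nerves and that oligodendrocytes wrap around axons of the brain and spinal cord. The 8 genes described here, chosen by symbol, encode proteins of that sheath: Mbp (ENSMUSG00000041607), Pmp22 (ENSMUSG00000018217), Prx (ENSMUSG00000053198), Mag (ENSMUSG00000036634), Pmp2 (ENSMUSG00000052468), Mobp (ENSMUSG00000032517), Mog (ENSMUSG00000076439) and Opalin (ENSMUSG00000050121). All 8 were found, each on 1 line, among the 54838 genes of the tissue table and again among the 46517 genes of the fibroblast table. The question put to them was which of them are absent from sarcomas in which the glial transcription factor gene Sox10 is high.

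The libraries come from mice made to express the CD74-NRG1 fusion, in which the membrane protein Cd74 is joined to neuregulin 1 (Nrg1), which binds the receptor Erbb3. The tumours and all normal tissues are labelled with the mouse line Rosa26CD74-NRG1/Flp, so the normal tissues carry the transgene too. In that line an FRT-flanked stop cassette at Rosa26 is removed by a Flp deleter allele early in the embryo, and expression is then near ubiquitous, per the study's design text. The tissue libraries were 7 sarcomas of 6 mice, 3 liver tumours, 2 libraries of an intestine tumour of 1 mouse, 2 brains, 6 muscles, 7 lungs, 6 spleens, 8 livers and 1 kidney. Tumours and normal tissues were often taken from the same animals, and no source used here gives their ages. The embryonic fibroblasts (MEFs) were labelled homozygous (Rosa26FSF.CD74-NRG1/FSF.CD74-NRG1), heterozygous (Rosa26FSF.CD74-NRG1/Flp) or negative (Rosa26Flp/Flp), with 3 embryos each, from matings of animals that carried both alleles. Each embryo gave a library at passage 3 and at passage 1.

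The sheath is built in steps with known gene products. Schwann cells and oligodendrocytes both need Sox10, and both pack their membranes with Mbp. Schwann cells add Pmp22, Prx and Pmp2 under control of Egr2, after contact with axons that carry neuregulin on their surface. Oligodendrocytes add Mobp, Mog and Opalin under control of Myrf, and Mag is used by both cell types at the face that touches the axon.

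Tissue libraries held 4837536 to 10089637 counts and MEF libraries 3107561 to 5511793. Levels are given as CPM, the counts of a gene scaled to a common library size. Where a gene had 0 counts, the floor was set at 3 counts, which corresponds to 0.297 to 0.62 CPM in 1 tissue library and 0.544 to 0.965 CPM in 1 MEF library. Intervals and floors cover counting error only. Some libraries stand apart or go against their labels. Nrg1 was at 0.675 to 5.36 CPM in the tissues of mouse M00246, which gave no tumour library, against 8.16 to 111 CPM in all other tissue libraries. Nrg1 also goes against the genotype label in MEF embryos 1 and 3. The labels of embryo 8 disagree on its passages, and the group field was used. The liver tumour of M00249 is titled as liver and is called a tumour by its group field alone. Of the pair of sarcoma libraries of mouse M00245, called T1 and T2, T2 stood apart in several glial genes. The reads of the pair were summed, so that the sarcoma group has 6 mice, and results on Mag and Cldn11 that rest on T2 are also given without it.

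The label of the sarcoma group was first set against Sox10, a transcription factor of neural crest and glia. Sox10 ranged from 414 to 902 CPM over the 6 sarcoma mice (median 670), against 51.5 and 53.3 CPM in brain and 4.88 to 8.4 CPM in muscle (median 6.07). Lung, spleen, liver, liver tumours, the intestine tumour and the kidney had at most 2.12 CPM. Every sarcoma library lay above every library of the other tissues. By the quasi-likelihood test of edgeR, the log2 fold change of Sox10 was 5.67 ± 0.24 (± SE) in sarcoma over muscle (adjusted p = 3e-09) and 3.26 ± 0.28 in sarcoma over brain (adjusted p = 1.4e-05). High Sox10 in sarcoma was part of the question, so these values describe its size and are no independent support.

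**Figure D1:**
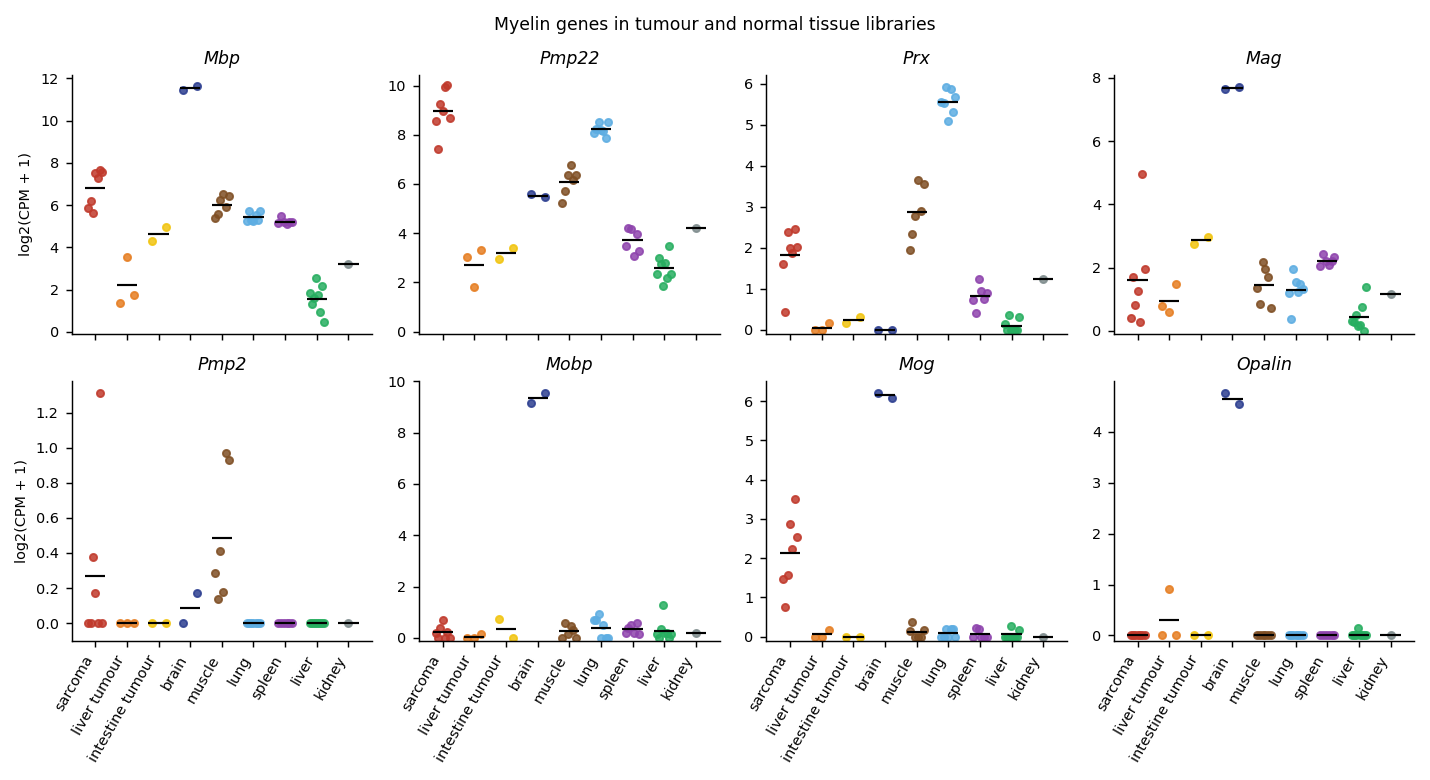
Level of each myelin gene in each tissue library, as log2(CPM + 1) on the vertical axis; points are libraries, the bar is the mean of the points, and the 7 sarcoma points include T1 and T2 of mouse M00245. Sarcomas hold Pmp22 at 169 CPM or more in every library, while Opalin is at 0 in all 7.

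The peripheral and shared sheath genes come first. Pmp22, a tetraspan protein of compact Schwann cell myelin that many non-neural cells also express, had 25271 reads over the sarcomas. It had 374 CPM in the sarcoma of M00235, 169 in M00236, 611 in M00237, 498 in M00238, 989 and 1050 in T1 and T2 of M00245, and 407 in M00248. Muscle had 35.9 to 109 CPM (median 75.5), brain 47.1 and 42.8 CPM, and lung 232 to 368 CPM (median 292). The sarcomas lay above all libraries of muscle and brain and overlapped only with lung, the sarcoma of M00236 being the lowest of the 6 mice.

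Prx, periaxin, links the Schwann cell membrane to the basal lamina and is also made by endothelium of some organs. The sarcomas of M00235, M00236, M00237, M00238, M00245 (summed) and M00248 had 2.07, 0.348, 4.22, 3.02, 3.68 and 3.04 CPM of Prx, which are 128 reads in all. Muscle had 2.87 to 11.7 CPM (median 6.16), lung 32.8 to 59.8 CPM (median 46.2), and both brains had 0 reads. Lung, not a tissue of myelin, held the most, and the sarcoma and muscle ranges overlapped.

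Pmp2, a fatty acid binding protein of Schwann cell myelin, had few reads in every tissue. It had 12 reads over the 7 sarcoma libraries, and 9 of these were in T2 of M00245 (1.49 CPM), with 0 reads in 4 libraries. Muscle had 0.0997 to 0.956 CPM, brain 0 and 0.127 CPM, and lung, spleen, liver, kidney and the other tumours had 0 reads in every library.

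Mbp, myelin basic protein, lies on the cytoplasmic face of compact myelin, and its gene also makes golli transcripts in blood and other cells, which 3′ end counts cannot be relied on to separate. The sarcomas of M00235, M00236 and M00237 had 57.8, 71.5 and 48.5 CPM, and those of M00238, M00245 (summed) and M00248 had 184, 181 and 188 CPM. Brain had 2799 and 3165 CPM, muscle 40.4 to 92.3 CPM (median 67.3), lung 36.5 to 52.4 CPM (median 38.8) and spleen 33.4 to 44 CPM (median 35.7). The 3 sarcomas with more Mbp lay above every muscle library, and the other 3 lay within the muscle range.

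Mag, the myelin-associated glycoprotein, is an adhesion receptor on the inner turn of the sheath. The sarcomas had 0.318, 2.26, 0.753 and 1.38 CPM in M00235, M00236, M00237 and M00238, 0.207 and 30.3 CPM in T1 and T2 of M00245, and 2.9 CPM in M00248. Brain had 200 and 210 CPM, and muscle had 0.649 to 3.54 CPM (median 1.91). T2 alone carried 183 reads of Mag and each other sarcoma library 20 or fewer, and all other sarcoma libraries lay at or below the highest muscle library.

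The oligodendrocyte genes divided into a member that was present in sarcomas and a pair that was at the floor. Mog, an immunoglobulin-type protein of the outermost sheath surface, had 11, 4, 13 and 50 reads in the sarcomas of M00235, M00236, M00237 and M00238, 18 and 63 in T1 and T2 of M00245, and 33 in M00248. These are 0.696 to 7.44 CPM over the 6 mice (median 3.37), against 72.5 and 66.9 CPM in brain and at most 0.299 CPM in any muscle, lung, spleen, liver, kidney or other tumour library. All 7 sarcoma libraries were above 3 counts and above every library outside the brain.

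Mobp, a small basic protein of central myelin, had 9 reads over all 7 sarcoma libraries, 5 of them in M00238, and only that library was above 3 counts. Brain had 573 and 739 CPM, and no library outside the brain had more than 1.43 CPM. Opalin, a membrane glycoprotein of oligodendrocytes, had 0 reads in all 7 sarcoma libraries, against 26 and 22.3 CPM in brain. With 3 counts allowed over the sarcoma group, Opalin was at least 357-fold lower in sarcoma than in brain by plain CPM.

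**Figure D2:**
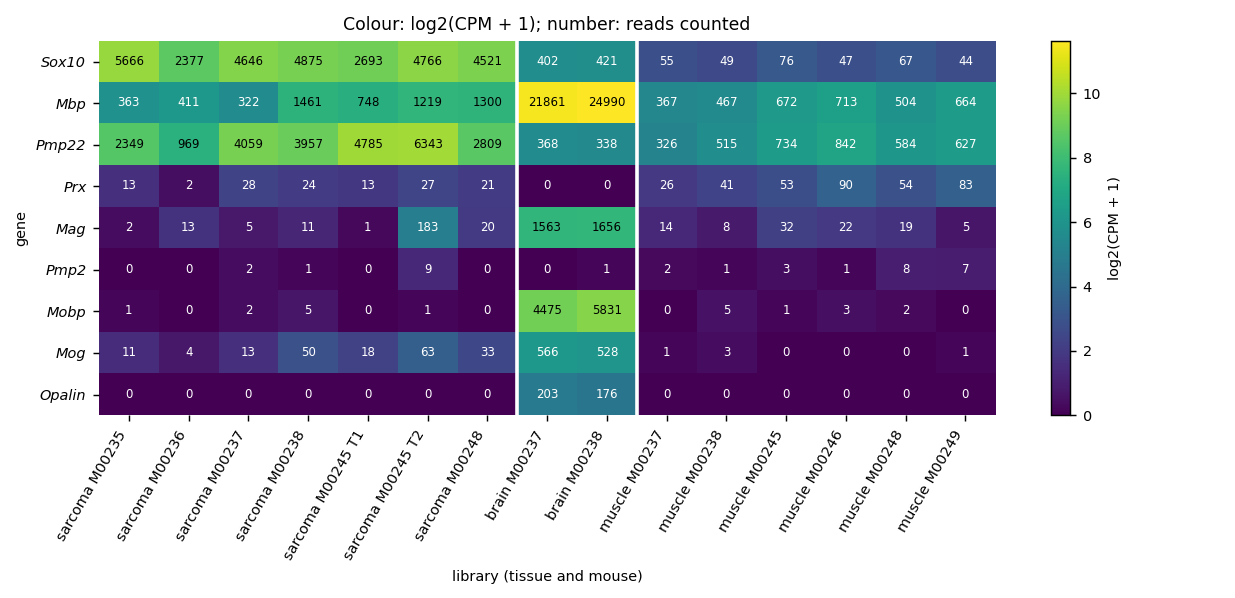
Sox10 and the 8 myelin genes in each sarcoma, brain and muscle library; colour gives log2(CPM + 1) and the number in each cell is the reads counted, rounded. The Mobp and Opalin rows are dark in every sarcoma and bright in both brains, and Mag is bright in 1 sarcoma library, T2 of M00245, with 183 reads.

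Start-site sequences are shown for the members that separate sarcoma from brain, because Sox10 was higher in sarcoma. Windows from 250 bases before to 50 after annotated starts (RefSeq, GRCm38.p6) were available for Pmp22 (4 windows), Mag (3), Prx, Mobp, Mog and Opalin. On both strands they were searched for the SOX letters ACAAAG and ACAATG, for CTGGNAC, letters known from sites of Myrf, and for GTGGGNG, letters known from sites of the Egr family. The SOX motifs share their first letters, ACAA, and so are variants of each other. In the 30-base stretches below, read 5′ to 3′ along the gene, the capitals mark the match, and CTTTGT is ACAAAG on the other strand. Mobp is shown at -198 from its start (chr9:120149532-120149561, plus strand), Opalin at -139 (chr19:41077235-41077264, minus strand), Mag for the SOX letters (chr7:30914972-30915001, minus strand), and Mog for the Myrf letters at -83 (chr17:37023463-37023492, minus strand).
Mobp: ttttgtttcactCTTTGTttcaactttctt
Opalin: cagaaaataaagACAAAGagaaggaagact
Mag: tgacaagggcccCTTTGTgcccccctcccc
Mog: agaaatgcccaGTACCAGgcagccactgct
The Mobp window held 6 matches of ACAAAG and the Opalin window held 2, and the windows of Mag held 1, while those of Mog, Pmp22 and Prx held neither SOX motif. Of all 32851 mouse windows of this length, 18.7% hold ACAAAG, 12.6% hold ACAATG and 28.6% hold either, so a single match is common. The Myrf letters, in 19.3% of all windows, were matched in those of Mag, Mog and Opalin and in 1 of the 4 of Pmp22. The Egr letters, in 31.6%, were matched in those of Prx, Mag and Opalin. These matches describe the letters in the windows and say nothing of binding.

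**Figure D3:**
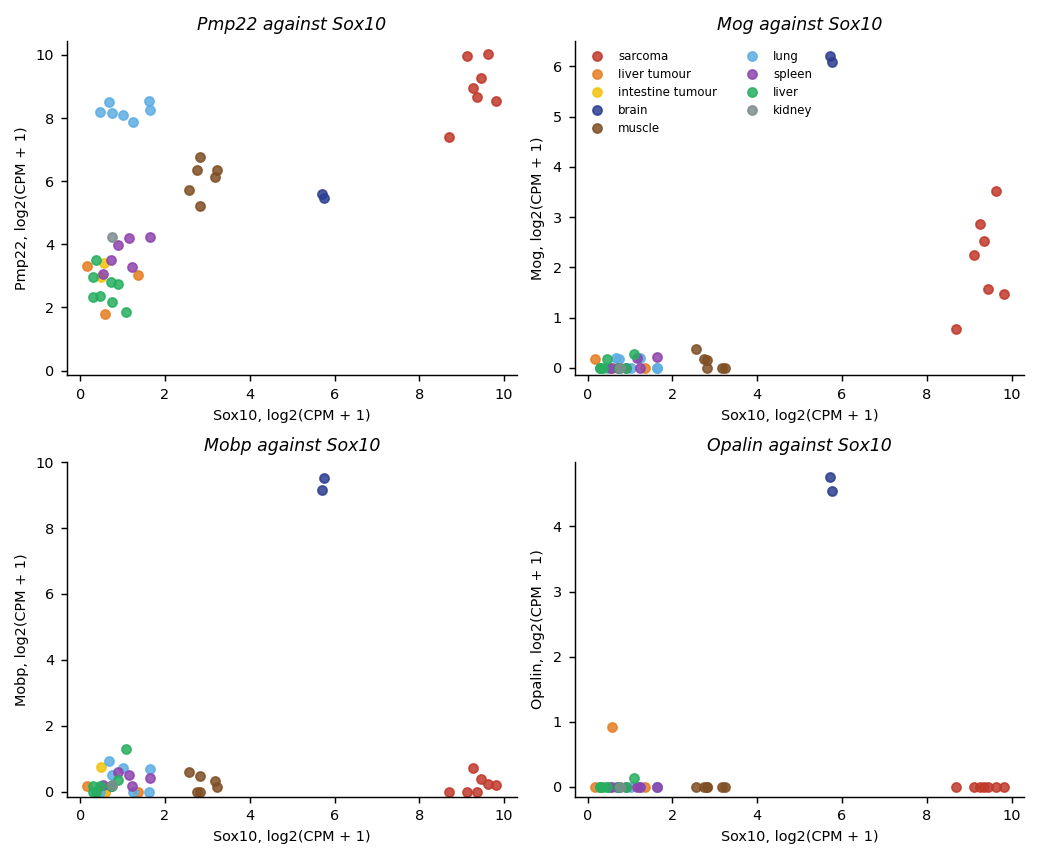
Sox10 on the horizontal axis against Pmp22, Mog, Mobp and Opalin on the vertical axes, all as log2(CPM + 1), with 1 point per tissue library coloured by tissue. Sarcomas lie farthest to the right in each panel; they are high for Pmp22, low but above the other non-brain libraries for Mog, and at or near 0 for Mobp and Opalin.

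The comparison of sarcoma with brain asks how the tumours differ from a tissue with oligodendrocyte myelin. Of the 8 members, 7 passed the filter on low counts and Pmp2 did not. Mobp and Opalin met the filter only through the brain libraries and Prx only through the sarcomas, so these had to differ. Mag and Mog met it in the sarcomas too, so the filter did not set their result. All 7 were past an adjusted p of 0.05 in edgeR, against 48.4% of the 17955 genes tested (22.3% higher and 26.1% lower). Mbp fell by 5.03 ± 0.48 on the log2 scale (adjusted p = 2.5e-05), Mag by 6.00 ± 0.92 (adjusted p = 0.00056), Mog by 4.58 ± 0.53 (adjusted p = 8.8e-05) and Mobp by 11.95 ± 0.52 (adjusted p = 2.5e-07). With only T1 of M00245, Mag fell by 7.61 (adjusted p = 6.2e-06). Pmp22 rose by 3.07 ± 0.54 (adjusted p = 0.0012), and Prx, with 0 reads in brain, was at least 15.1-fold higher in sarcoma by plain CPM. The adjusted p was 0.0036 for Prx and 0.00013 for Opalin. Over all genes, 2038 were called higher and 3448 lower without the brain of M00237, against 4009 and 4684 with both brains. Bulk libraries cannot tell fewer cells of a type from less RNA per cell.

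The comparison with muscle sets the sarcomas against a normal tissue that holds peripheral nerve. The filter kept 4 members, Mbp, Pmp22, Prx and Mag. Of these, 2 were past the threshold, in opposite directions, against 64.9% of the 14697 genes tested (33.6% higher and 31.4% lower). Pmp22 rose by 1.80 ± 0.35 on the log2 scale (adjusted p = 0.00044), with means of 354 ± 172.5 CPM in sarcoma and 102 ± 39.1 CPM in muscle after scaling by TMM, the trimmed mean of M-values (SD, n = 6 each). Prx fell by 2.36 ± 0.43 (adjusted p = 0.00031), with 1.86 CPM in sarcoma and 9.93 CPM in muscle on the same scale. Mag changed by 0.06 ± 0.76 (adjusted p = 0.95), and by -1.49 (adjusted p = 0.046) when only T1 of M00245 was used.

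Mbp depends on the scaling. Its change against muscle was -0.14 ± 0.36 (adjusted p = 0.74), while the ratio of plain CPM, from counts summed over each group, was 2.01. Without TMM it was 0.88 (adjusted p = 0.039), where the median of all genes tested was 1.03, against a median of 0.06 with TMM. Over all genes, 4931 were called higher and 4609 lower with TMM, and 9271 higher and 2019 lower without it. The split moved for other tissues too: without TMM, 5383 genes were called higher and 3279 lower against brain, 3447 and 3085 against lung, 5931 and 2302 against spleen, 9804 and 2265 against liver, and 8569 and 2112 against liver tumours, against 4009 and 4684, 2817 and 3703, 3955 and 4387, 5558 and 5110, and 4995 and 4246 with TMM. Pmp22 stayed higher without TMM (2.85, adjusted p = 1.1e-05) and Prx stayed lower (-1.32, adjusted p = 0.015). The mouse numbers fall into 2 runs, and whether these mark a batch, no source used here says. Within M00235 to M00238, Pmp22 was higher by 2.38 (adjusted p = 0.0048) and Prx lower by 1.39 without passing (-1.39, adjusted p = 0.13). Within M00245 to M00249, the values were 1.95 (adjusted p = 0.0011) and -2.47 (adjusted p = 0.00079). Without the muscle of M00246, whose Nrg1 was low, they were 1.91 (adjusted p = 0.00063) and -2.21 (adjusted p = 0.00093).

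**Figure D4:**
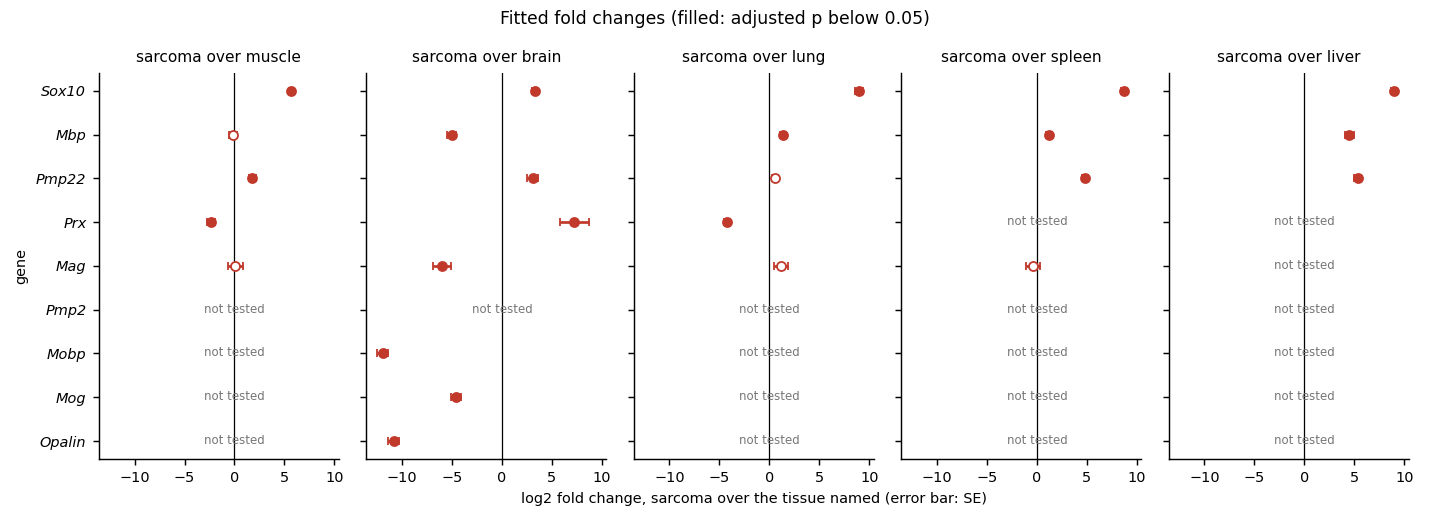
Fitted log2 fold change of Sox10 and the myelin genes in sarcoma over muscle, brain, lung, spleen and liver, with SE; filled points have an adjusted p below 0.05, and genes removed by the filter on low counts are marked as not tested. Opalin in sarcoma and Prx in brain had 0 reads, so the size of their points depends on the fit's prior count.

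Mog failed the filter in the comparisons with muscle, lung, spleen and liver, since the sarcoma of M00236 had 4 reads. An exact permutation test on log2(CPM + 1), two-sided, was therefore made over mice. The exact permutation test gave p = 0.0022 against muscle, p = 0.00058 against lung, p = 0.0022 against spleen and p = 0.00033 against liver, each the smallest that these group sizes allow. Summed over each group, Mog was 44.9-fold higher in sarcoma than in muscle, where it had 5 reads. A total of 54 such tests was made over members, Sox10 and tissues, and these p-values are not adjusted. For Pmp2 against muscle the exact permutation test gave p = 0.23 and for Mobp p = 0.93.

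Against lung, 2 of 4 tested members passed, against 41.9% of the 15556 genes tested (18.1% higher and 23.8% lower). Mbp rose by 1.33 ± 0.29 (adjusted p = 0.0017) and Prx fell by 4.28 ± 0.32 (adjusted p = 4.4e-08). Pmp22, at 169 to 1023 CPM over the sarcoma mice and 232 to 368 CPM in lung, changed by 0.56 ± 0.26 (adjusted p = 0.097). It passed with the mouse as a block (0.82, adjusted p = 0.042) and without the sarcoma of M00236 (0.72, adjusted p = 0.021). Mbp did not pass within mice M00235 to M00238 (0.97, adjusted p = 0.28) and did within M00245 to M00249 (1.91, adjusted p = 6.5e-05).

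Against spleen, 2 of 3 tested members passed, against 57.0% of the 14642 genes tested, with Pmp22 higher by 4.80 ± 0.34 (adjusted p = 3.1e-08) and Mbp by 1.18 ± 0.31 (adjusted p = 0.0048). Mag, at 3.11 to 4.38 CPM in spleen, changed by -0.37 ± 0.67 (adjusted p = 0.66) and by -1.94 (adjusted p = 0.0041) with only T1 of M00245. Without the spleen of M00246 or the sarcoma of M00236, 4 members passed, Mog and Prx being added once they met the filter through the sarcomas. Against liver, both tested members passed, against 74.0% of 14423 genes (38.5% higher and 35.4% lower), with Pmp22 higher by 5.34 ± 0.32 (adjusted p = 2.8e-10) and Mbp by 4.49 ± 0.44 (adjusted p = 1.2e-07).

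Against the liver tumours, 4 of 5 tested members were higher, against 55.8% of 16557 genes called in either direction (30.2% higher and 25.6% lower). Pmp22 was at 2.48, 7.22 and 8.99 CPM and Mbp at 1.56, 2.4 and 10.6 CPM in the liver tumours, all below every sarcoma. Sarcoma was higher by 5.36 ± 0.62 for Pmp22 (adjusted p = 3.4e-05) and by 3.65 ± 0.73 for Mbp (adjusted p = 0.0015). Prx and Mog, each with 1 read in the 3 liver tumours, met the filter on low counts only through the sarcomas. They could only be higher in sarcoma, so the count of 4 is no result beside the share of all genes. Their adjusted p-values in edgeR were 0.0029 and 0.0027, and with the mouse as a block 0.14 and 0.055. The block also moved the counts over all genes to 2018 higher and 1880 lower against liver tumours, 1595 and 2435 against lung and 2491 and 2264 against spleen. Between liver tumours and normal liver neither Pmp22 nor Mbp passed, against 10.6% of 13256 genes called (6.98% higher and 3.64% lower). With the mouse as a block, edgeR called 0 of these genes, with 941 at an unadjusted p under 0.05, and DESeq2 without the block called 1146 higher and 841 lower. Without the liver tumour of M00248 there were 567 higher and 293 lower. Pmp22 had 2.65 to 10.2 CPM and Mbp 0.372 to 4.8 CPM in normal liver, and both ranges overlapped with the tumours.

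The sarcomas also differed among themselves. The sarcoma of M00236 had the lowest Sox10, Pmp22, Prx and Mog of the 6 mice, and that of M00235 had the highest Sox10 but Mbp at 57.8 CPM. Within mouse M00245, T2 exceeded T1 in Mag, with 26 to 35 CPM against 0.00523 to 1.15 CPM as exact 95% Poisson intervals, and in Mog, with 8.01 to 13.3 CPM against 2.21 to 5.88 CPM. The tight junction gene Cldn11, used in central myelin and also by other cells, had 50.3 CPM in T2 and 0.62 CPM in T1. Pmp22 had 1050 CPM in T2 and 989 CPM in T1, Mbp had 202 CPM in T2 and 155 CPM in T1, and Sox10 had 789 CPM in T2 and 557 CPM in T1.

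Other cell types were read from marker lists beside these values. In the sarcomas, the neuronal synapse gene Snap25 had at most 0.827 CPM, against 711 and 796 CPM in brain. The 8 neuron markers summed to 36.5 to 65 CPM in 6 sarcoma libraries and to 200 CPM in T2 of M00245, and the 6 astrocyte markers summed to 8.54 to 21.1 CPM and to 164 CPM in T2. In brain these lists summed to 3920 and 4454 CPM and to 2654 and 2989 CPM. Tissues outside the brain reached sums like those of T2, with 65.2 to 271 CPM of the neuron markers in lung and 104 to 186 CPM of the astrocyte markers in liver. Of the 9 oligodendrocyte markers, 7 were above 3 counts in a sarcoma library and Opalin was at 0 in all of them, and the list summed to 738 to 3686 CPM in sarcomas, against 4077 and 4803 CPM in brain. The part of these cells in the Mag level of T2 was not tested. All 7 fibroblast markers were read in the sarcomas and summed to 7702 to 31790 CPM, against 1293 to 1696 CPM in muscle, 221 and 643 CPM in brain and 692 to 1306 CPM in lung. The part of fibroblasts in the Pmp22 level, which was higher in sarcoma than in muscle and brain, was not tested. The 8 skeletal muscle markers summed to 25.3 to 4403 CPM in sarcomas, against 17260 to 32810 CPM in muscle, and were highest in the sarcomas of M00238 and T1 of M00245. The part of muscle and its nerves in the Mbp and Prx levels was not tested. The 6 peripheral axon markers summed to 16 to 45 CPM in sarcomas and 3.64 to 11.8 CPM in muscle. In single sarcoma libraries Prph reached at most 0.827 CPM, Nefh 0.88 CPM, Nefl 1.96 CPM and Nefm 3.61 CPM. Muscle libraries reached at most 1.3, 0.442, 0.649 and 0.518 CPM of the same genes. Most of each sarcoma sum therefore lay in the rest of the list, Uchl1 and Scn9a. The part of axons in these sums was not tested. The muscles of M00237 and M00238 had the lowest Mbp, Pmp22 and Prx of the 6.

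The rest of the myelin programme was read from lists of related genes. Of the 12 other genes of peripheral and shared myelin, 10 were tested against muscle, and 3 rose and 3 fell. The median log2 fold change of those tested was -0.26, against 0.06 for all genes. Counts in these lists stand beside 33.6% of all genes tested called higher and 31.4% lower against muscle, and 22.3% higher and 26.1% lower against brain. Cmtm5, a membrane protein of glia, rose by 6.24 ± 0.45 (adjusted p = 7.9e-08) and Cnp, an enzyme of non-compact myelin, by 2.82 ± 0.29 (adjusted p = 2e-06). Ncmap, a protein of non-compact peripheral myelin, fell by 3.18 ± 0.47 (adjusted p = 4.9e-05). Mal, a raft protein of both kinds of myelin, did not pass (-0.62 ± 0.35, adjusted p = 0.13).

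Against brain, 11 of the same 12 genes were tested, 1 rose and 5 fell, with a median of -0.97 against 0.10 for all genes. Of 15 other oligodendrocyte myelin genes all were tested, 1 rose and 12 fell, with a median of -3.69. Mal fell by 3.36 ± 0.32 (adjusted p = 2.6e-05), Cnp by 1.10 ± 0.35 (adjusted p = 0.026) and Cldn11 by 4.83 ± 1.26 (adjusted p = 0.011), a gene whose sarcoma reads lay mostly in T2 of M00245. With only T1, Cldn11 fell by 7.54 ± 0.62 (adjusted p = 1e-05). Aspa, which makes acetate from N-acetylaspartate, was the member of that list that rose (1.80 ± 0.41, adjusted p = 0.0054). Against muscle, 11 of these 15 were tested, 5 rose and 1 fell, with a median of 0.49, and those that rose included Aspa, Cnp and Omg, a glycoprotein of the axon-glia border (5.29 ± 0.71, adjusted p = 2.2e-05).

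Of 14 Schwann cell myelin regulators, all tested against muscle, 8 rose and 1 fell, with a median of 2.36. Beside Sox10 these included the neuregulin receptor gene Erbb3 (3.04 ± 0.16, adjusted p = 8.2e-09), the transcription factor gene Zeb2 (4.04 ± 0.25, adjusted p = 3.1e-08) and Pou3f1, a factor of promyelinating Schwann cells (5.23 ± 0.38, adjusted p = 9.2e-08). Egr2, the factor that switches on Prx and Pmp22 in Schwann cells, had 2.86 to 19.8 CPM over the sarcoma mice. Muscle had 0.553 to 2.47 CPM of Egr2, which rose by 2.14 ± 0.45 against it (adjusted p = 0.00092). Lung had 1.345 to 11.05 CPM, the intestine tumour 9.47 and 10.5 CPM, and MEF libraries 10.7 to 24.6 CPM. In edgeR, Egr2 passed against brain, spleen and liver. It did not pass against lung (adjusted p = 0.08) or liver tumours (adjusted p = 0.052). Against brain, 12 of the 14 rose and 1 fell, with a median of 3.21. Sox10, whose high level was part of the question, is counted among those that rose here and in the next list. Of 11 oligodendrocyte transcription factors, 10 were tested against brain, 2 rose (Sox10 and Zfp536) and 7 fell, with a median of -2.40. Myrf, which switches on central myelin genes, was among those that fell (-3.98 ± 1.01, adjusted p = 0.0092). Against muscle 5 of the 11 were tested, 4 rose and 1 fell, with a median of 4.15. Those that rose were Sox10, Nkx2-2 (5.43 ± 0.71, adjusted p = 1.7e-05), Zfp536 (4.15 ± 0.22, adjusted p = 1e-08) and Tcf7l2 (0.67 ± 0.12, adjusted p = 0.00017). Of the fusion's partner genes, Cd74 rose by 1.17 ± 0.29 against muscle (adjusted p = 0.0029), where normal muscle carries the transgene too, and Nrg1 changed by -0.38 ± 0.51 (adjusted p = 0.54).

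Of 21 genes of immature or repair Schwann cells and brakes on myelination, 19 were tested against muscle, 14 rose and 2 fell, with a median of 1.72. The adhesion gene Ncam1 rose by 5.01 ± 0.17 (adjusted p = 6.4e-10), the glial cadherin gene Cdh19 by 5.04 ± 0.24 (adjusted p = 4.7e-09), the neurotrophin receptor gene Ngfr by 3.27 ± 0.16 (adjusted p = 6.1e-09) and L1cam by 3.47 ± 0.18 (adjusted p = 8.2e-09). Against brain all 21 were tested, 11 rose and 4 fell, with a median of 0.89. Of 14 genes of axon contact, microvilli and dystroglycan, 13 were tested against muscle, 8 rose and 3 fell, with a median of 0.99. Cadm4, the Schwann cell partner of axonal adhesion molecules, rose by 3.35 ± 0.28 (adjusted p = 3.1e-07), the laminin genes Lamb1 and Lama2 rose by 3.16 ± 0.30 and 1.80 ± 0.25 (adjusted p = 7.7e-07 and 3e-05), and Utrn, a dystrophin relative, rose by 1.5 ± 0.21 (adjusted p = 2.6e-05). Drp2, the partner of periaxin in Schwann cells, fell by 1.72 ± 0.54 (adjusted p = 0.013), as Prx did. Against brain all 14 were tested, 7 rose and 5 fell, with a median of 1.69.

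Of 12 genes of myelin lipid synthesis, 11 were tested against muscle, 4 rose and 5 fell, with a median of -0.45. Scd2, a fatty acid desaturase, rose by 2.12 ± 0.27 (adjusted p = 1.4e-05) and Cers2, a ceramide synthase, by 1.65 ± 0.18 (adjusted p = 3.8e-06). The cholesterol genes Fdft1 and Hmgcs1 fell by 2.72 ± 0.21 and 1.49 ± 0.19 (adjusted p = 1.2e-07 and 1.2e-05). Against brain all 12 were tested, 3 rose and 4 fell, with a median of 0.12. The shares of all genes called were 33.6% higher and 31.4% lower against muscle and 22.3% and 26.1% against brain. Set beside these, the counts are no result about lipid synthesis. The counts of peripheral and shared myelin genes against muscle are no result either. All lists were chosen with results of these data known, and they show counts, not a test of each list.

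The order of mean levels over the 9 tissue groups was as follows. For Mbp, brain stood above sarcoma without overlap, then came muscle, lung, spleen, the intestine tumour, kidney, liver tumour and liver. Sarcoma and muscle overlapped, as did muscle and lung, lung and spleen, kidney and liver tumour, and liver tumour and liver. For Pmp22, sarcoma stood first and overlapped with lung, and lung stood above muscle without overlap. For Prx, lung stood above muscle without overlap, and muscle, sarcoma and kidney followed with overlap. For Mag, brain was followed by the intestine tumour, sarcoma and spleen, which overlapped. The place of sarcoma in that order rests on T2: its mean was 4.09 CPM over 6 mice and 1.3 CPM with only T1 of M00245, below spleen (3.66 CPM), muscle (1.94 CPM) and lung (1.57 CPM). For Mog, brain stood above sarcoma and sarcoma above muscle, in both cases without overlap. For Mobp and Opalin, brain stood above all others without overlap.

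The genes most like each member were found by Pearson's r of log2(CPM + 1) over 41 tissue samples, among 17222 genes with a mean of at least 1 CPM. Such values reflect the tissue groups and are a description only. Pmp22 was closest to Epb41l4a (r = 0.966), Fzd2 (0.955) and Fibin (0.954), and these stayed at 0.954 or more without the brains. Prx was closest to Vegfd, Cbr2 and Tmem100 (0.94, 0.94 and 0.938). Mog was closest to Mgat5b (0.986), which stayed at 0.953 over the 39 samples without brain. Mobp was closest to Sncb (0.992) and Opalin to Spock1 (0.989), which dropped to 0.607 and 0.594 without brain. Mbp was closest to Larp6 (0.936) and Mag to Scn2b (0.907), with 0.899 and 0.691 without brain. Pmp2 had a mean under 1 CPM and was not compared.

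In the fibroblasts, a check outside nerve tissue, 3 members passed the filter on low counts. Over the 9 embryos, Mbp had 5.62 to 17.2 CPM at passage 3 (median 11.4) and 7.31 to 12.5 CPM at passage 1 (median 9.7). Pmp22 had 47.1 to 91.2 CPM at passage 3 (median 76.6) and 38.3 to 87.8 CPM at passage 1 (median 66.7). Prx had 2.06 to 6.96 CPM at passage 3 (median 3.3) and 1.71 to 8.21 CPM at passage 1 (median 3.66). The passages overlapped for all 3. Mobp, Mog and Opalin had 0 reads in all 18 libraries, Mag had 27 reads and Pmp2 41 reads over the 18 and each at most 6 in a library, and Sox10 was at most 1.98 CPM.

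No member passed in any MEF comparison. Between passage 3 and passage 1, where 2.82% of the 12051 genes tested were called (1.81% higher and 1.01% lower), Mbp changed by 0.24 ± 0.16 (adjusted p = 0.48), Pmp22 by 0.17 ± 0.16 (adjusted p = 0.65) and Prx by -0.17 ± 0.27 (adjusted p = 0.81). The count of 340 genes behind that share moved with single embryos: leaving out 1 embryo gave 39, 51, 34, 124, 186, 108, 438, 30 and 779 calls without embryos 1, 2, 3, 4, 5, 6, 7, 8 and 10 in that order. Without embryos 1 and 3 together there were 4. The main fit had no term for the embryo, though each embryo gave a library at both passages. With the embryo as a block, 474 of 12051 genes were called. Between embryos labelled homozygous and negative, edgeR called 0 of 12051 genes (0.0%) at either passage, with 1315 at passage 1 and 452 at passage 3 at an unadjusted p under 0.05, and DESeq2 called 9 and 0. The count at passage 1 rests on embryo 7: without it, 337 genes were higher and 554 lower, of 12299 tested. With no filter on low counts, 28 were higher and 2 lower at passage 1. Without embryos 1 and 3, 2 were called at passage 1 and 1 at passage 3. At passage 1, Mbp differed by -0.29 ± 0.28, Pmp22 by -0.12 ± 0.27 and Prx by 0.57 ± 0.48 between homozygous and negative embryos. At passage 3 the values were -0.47 ± 0.27, -0.20 ± 0.27 and 0.69 ± 0.45. With 3 embryos a group and labels of embryos 1 and 3 in doubt, these do not show that the genotypes are alike. Without embryos 1 and 3 no member passed either.

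**Figure D5:**
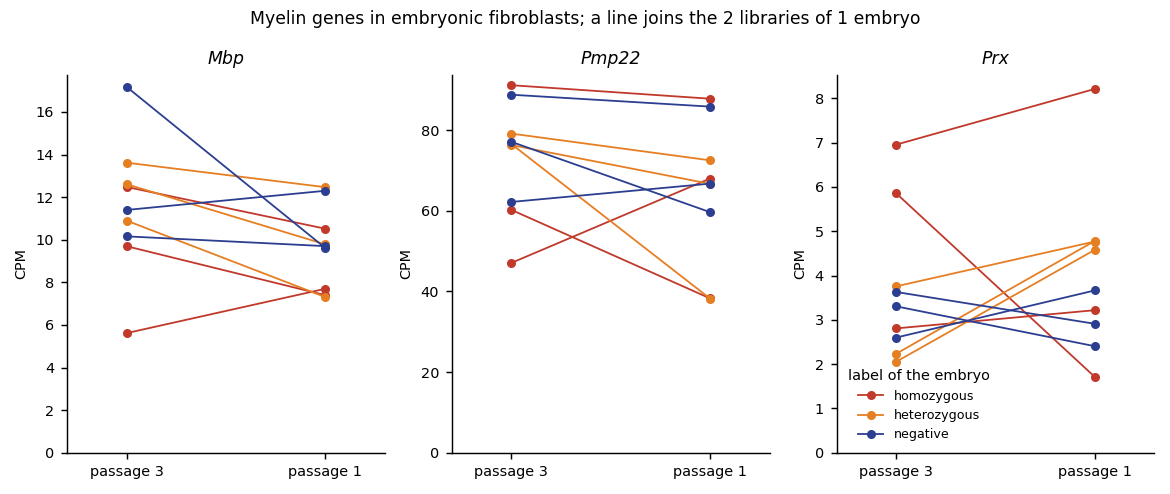
Mbp, Pmp22 and Prx in CPM in MEFs at passage 3 and passage 1, with a line for each of the 9 embryos coloured by its genotype label. The passages overlap for each gene, and Pmp22 lies between 38.3 and 91.2 CPM throughout.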

How the data were processed

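RNA was sequenced from transcript 3′ ends (QuantSeq, HiSeq4000), from cryostat sections of frozen tissue or from cultured fibroblasts, per the labels' protocols. The authors deposited expected counts per gene, of which 8.35% of values in tissues and 6.6% in MEFs were not whole. They were rounded, which changed library totals by at most 0.002%. The authors also deposited CPM values, per the file headers; CPM used here was computed from the expected counts. No aligner, counter or build is named: each is not given in the sources used here. All columns were matched to samples.

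Each comparison was fitted over all genes with edgeR 4.0.16 in R 4.3.3 (TMM, filterByExpr with a minimum count of 10, quasi-likelihood F test, two-sided, Benjamini-Hochberg adjustment, threshold 0.05). Tissue fits held only the groups compared, and MEF fits all 18 libraries. Fold changes are log2. The steps were tested on simulated data. Single members outside a fit were tested by exact permutation on log2(CPM + 1). Alternatives included DESeq2 1.42.0, other filters and scalings, the mouse as a block and leaving out each replicate. No library pair differed by as little as sampling noise (smallest chi-square per degree of freedom 11.7 in tissues and 2.99 in MEFs). Libraries of 1 mouse share animals across tissues; deviations of same-mouse libraries correlated by 0.058 on average over 67 pairs (-0.169 to 0.403). Named list genes are those past the threshold against muscle with the smallest adjusted p, up to 4 a list, and the principal myelin genes. Some of these are not reported here. Others (Cd9, Trf and the like) are counted only. The members and lists were chosen with earlier results of these data known.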

Additional observations from a re-analysis of the deposited data

Results flagged for a closer look

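In 2 of 19 group and gene pairs examined, a sample lay far from the others of its group; chance gives about 1 in 20. The sarcoma of M00245, at 16.9 CPM of Mag with both libraries summed, stood apart from the other 5 sarcoma mice, and its reads came from T2. The spleen of M00245 had 44 CPM of Mbp, above the other spleens.

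The intestine tumour (2 libraries of 1 mouse) and the kidney (1 library) entered no comparison, and the members named here were above what a count of 0 allows. The intestine tumour averaged 24.6 CPM of Mbp, 8.16 CPM of Pmp22, 6.28 CPM of Mag and 0.333 CPM of Mobp, the Mobp reads being in 1 of its libraries. The kidney had 8.41 CPM of Mbp, 17.6 CPM of Pmp22, 1.38 CPM of Prx and 1.24 CPM of Mag.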

How the results depend on the processing

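Of 19 member values past the threshold, none reversed over 457 alternatives and 15 lost no call. The 4 that lost a call were Prx against muscle and Mbp against lung (mice M00235 to M00238 only) and Prx and Mog against liver tumours (mouse block). The 19 include Mobp, Opalin and Prx against brain, and Prx and Mog against liver tumours. These passed the filter on low counts only through the group where they were high. Their direction was set by that filter, so for them a lack of reversals shows nothing. Filters of at least 5 CPM removed low members, and such a filter left 1 call against muscle and 2 against liver tumours. Against muscle, mice M00235 to M00238 gave 1 call. Against lung there were 4 calls with no filter and 5 in M00245 to M00249. Against spleen there were 4 with DESeq2, with T1 and T2 separate, and in the fit of all 7 tissue groups with or without the block. Against liver there were 5 with no filter, with DESeq2 and in that fit, 6 with the block added, and 4 in M00245 to M00249. With the mouse as a block, 2 members passed against liver tumours.

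Values under the threshold changed sign, and the cause was not tested. Mbp against muscle was 0.88 without TMM, 0.24 with the block, 0.20 with the number series as covariate, 0.26 in M00235 to M00238 and 0.11 in M00245 to M00249. Mag against muscle was -0.33 with the block, -1.49 with T1 only and -0.70 in M00235 to M00238. Mag against spleen was 0.20 without TMM, 0.0305 with the block, 0.18 with T2 only and 0.81 in M00245 to M00249, and against liver tumours -0.48 with T1 only. Pmp22 between liver tumours and liver was -0.000355 with RLE, -0.0348 with no filter, -0.00253 with DESeq2, -0.44 with the block, -0.012 with blood and mitochondrial genes removed, and -0.0286 and -0.11 in the fit of all groups without and with the block. Pmp22 between homozygous and negative MEFs at passage 1 was 0.29 without embryos 1 and 3.

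Leaving out 1 replicate at a time gave -0.29 to 0.0317 for Mbp and -1.27 to 0.34 for Mag against muscle, -0.12 to 1.45 for Mag against lung, -0.30 to 1.72 for Mag against liver tumours, and -0.39 to 1.31 for Mbp and -0.26 to 0.42 for Pmp22 between liver tumours and liver. In MEFs it gave -0.34 to 0.0361 for Prx between passages, and -0.37 to 0.13 for Pmp22 and -0.30 to 0.99 for Prx between homozygous and negative at passage 1. Counts of calls ranged from 2 to 3 against muscle and from 2 to 4 against lung, spleen and liver, where leaving out the sarcoma of M00236 gave 4 in each. Depth limits Pmp2, Mobp and Opalin, which had few or 0 reads in most libraries outside the brain.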

Other observations

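Mag was read in tissues rich in B cells. The 5 B cell markers summed to 1018 and 1522 CPM in the intestine tumour and to 394 to 1290 CPM in spleen, against 1.43 to 5.79 CPM in sarcoma. Mag was at 5.73 and 6.82 CPM in the intestine tumour and at 3.11 to 4.38 CPM in spleen. The part of B cells in these levels was not tested. Outside the brain, Opalin was read in 2 libraries, the liver tumour of M00248 with 9 reads and the liver of M00238 with 1 read. The liver of M00238 also had the highest Mobp outside the brain, at 1.43 CPM.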
